A study of Oryctolagus cuniculus with 6 samples.

Results

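The CCAAT/enhancer-binding protein family was followed in rabbit retina with proliferative vitreoretinopathy (PVR) through 5 genes, CEBPA, CEBPB, CEBPD, CEBPG and CEBPZ. The members were taken by symbol from the 28788 genes in the deposited tables, and all 5 were found. The family was chosen by the count-based difference of CEBPD, whose RNA was far higher in the PVR samples. For that reason that difference is given as a description with no test, whereas the other members came in by name. Retina from 3 normal samples was compared with retina from 3 PVR samples, all polyadenylated RNA of adult rabbits whose strain and sex are not given in the sources used here. In the PVR model the sclera was punctured, some vitreous body was drawn off, and plasma enriched in blood platelets was put into the vitreous cavity. The labels call the other group normal, and the sources used here do not say whether those eyes had any procedure, how long after injection the retinas were taken, or whether each sample is a separate animal. The p-values therefore measure only the spread between these samples, which may be technical.

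C/EBP proteins are transcription factors of the basic leucine zipper class: a basic region contacts DNA, and the zipper joins 2 proteins into a dimer, either of the same member or of different members. CEBPA is best known for driving the differentiation of fat, liver and myeloid cells. CEBPB and CEBPD are best known as factors of inflammation and the acute phase response, and CEBPD in particular is known to be induced by STAT3 downstream of cytokines of the IL-6 type. CEBPG is short, lacks an activation domain and works mainly as a dimer partner, for instance of ATF4. CEBPZ shares the CCAAT name but not the leucine zipper, and its relatives in yeast act in the nucleolus in the assembly of the large ribosomal subunit.

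Each sample held from 31904593 to 43035080 counted reads, and 18697 genes passed edgeR's filter on low counts, all 5 members among them. Levels are given as FPKM, the deposited value scaled to gene length and sequencing depth, which allows different genes to be compared, and as CPM, the count scaled to depth with TMM factors, which is the scale of the test. The tissue label was matched by its defining rod genes, with between 94078 and 154795 counts of SAG, the rod arrestin, in each sample. Normal replicate 2 stood apart through lens RNA. In it 2.89% of the counts fell on 5 crystallin genes (CRYAA and CRYBA1 among them), against at most 0.0291% in any other sample, and without that sample each member kept the direction of its difference. In bulk retina, fewer cells of a type and less RNA per cell cannot be told apart.

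In the normal retinas the members fell into 3 tiers. CEBPZ and CEBPG led with mean FPKM of 18.7 ± 1.20 (SD, n = 3) and 18.1 ± 0.882 (SD, n = 3), and their samples overlapped. CEBPD followed at 4.67 ± 0.750 (SD, n = 3), separated from its neighbours on either side. CEBPA, at 2.104 ± 0.201 (SD, n = 3), and CEBPB, at 1.67 ± 0.342 (SD, n = 3), were lowest and overlapped each other. In the PVR retinas CEBPD stood at the top with 39.2 ± 4.60 (SD, n = 3), above every sample of every other member. CEBPZ and CEBPG came next with 17.2 ± 1.84 and 16.5 ± 1.10 FPKM (SD, n = 3) and again overlapped. CEBPB, at 5.01 ± 1.54 (SD, n = 3), was above CEBPA, at 2.22 ± 0.242 (SD, n = 3), in all 3 PVR samples. By mean FPKM among all genes tested, CEBPD moved from percentile 53.0 in the normal group to percentile 92.1 in the PVR group, and CEBPB from 37.1 to 53.6, whereas CEBPA was at 40.5 and 39.3, CEBPG at 80.8 and 78.9, and CEBPZ at 81.3 and 79.7.

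**Figure D1:**
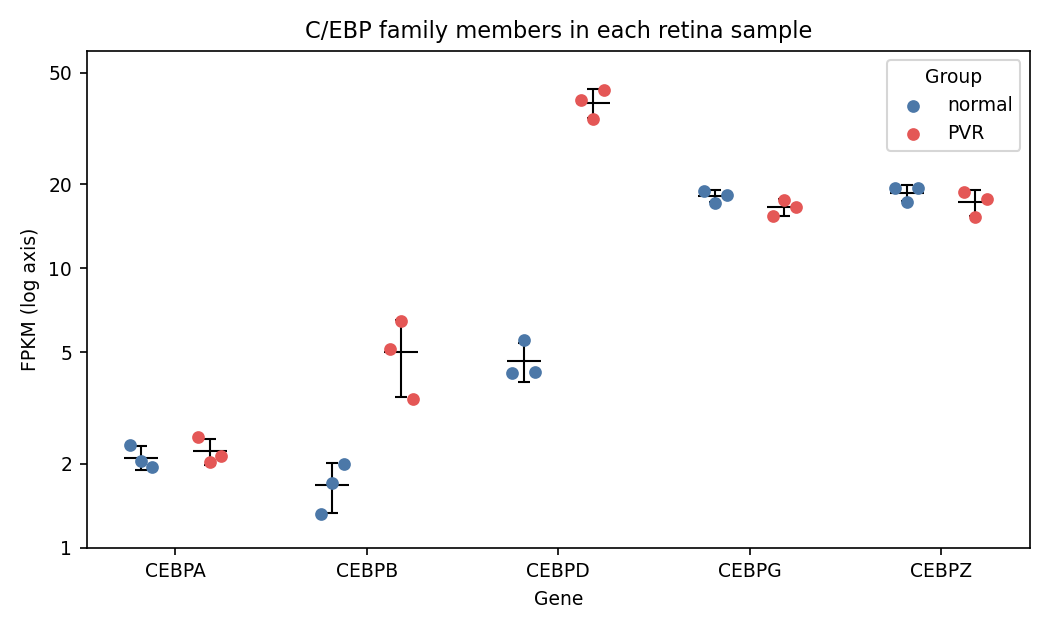
FPKM on a log axis of each of the 5 members in each retina sample, normal in blue and PVR in red, with the mean as a bar and the SD as whiskers (n = 3 per group). The CEBPD points of PVR sit between 34.2 and 43.2, above all normal points, which lie between 4.23 and 5.54, while the points of CEBPA, CEBPG and CEBPZ overlap between the groups on this scale.

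CEBPD had FPKM values of 4.23, 5.54 and 4.25 in normal replicates 1 to 3 and of 40.1, 34.2 and 43.2 in PVR replicates 1 to 3. Every PVR sample was high and the groups were far apart: the lowest PVR value was 6.17 times the highest normal value. Behind these values stood 221, 303 and 228 counts in normal and 1713, 1482 and 2494 counts in PVR. The fitted log2 fold change of CEBPD was 2.99 (standard error 0.17, edgeR), and over the 15 other settings tried it lay between 2.83 and 3.16. Among the 10789 genes with a mean log2 CPM of at least 3, it was number 11 from the top by log2 fold change. These values are a description, since this difference is the reason the family was chosen.

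CEBPB, the other inflammatory member, had FPKM values of 1.32, 1.70 and 2.0 in normal replicates 1 to 3 and of 5.13, 6.49 and 3.41 in PVR replicates 1 to 3. All PVR samples were above all normal samples, but they were spread widely. PVR replicate 3 was lowest, at 1.71 times the highest normal value, and PVR replicate 2 was highest. CEBPB was a scarce transcript, with 91 to 142 counts in normal and 260 to 372 in PVR. Its log2 fold change was 1.51 (edgeR, standard error 0.28, 95% interval 0.85 to 2.17, unadjusted p = 0.000876, adjusted p = 0.0510), where the adjusted p is that of the quasi-likelihood fit after Benjamini-Hochberg correction over all genes tested. CEBPB therefore missed the threshold of 0.05 narrowly. The call depended on the tool and on single samples: the adjusted p was 3.49e-05 with DESeq2, the tool of the study, 0.0429 with no filter on low counts and 0.0256 without PVR replicate 3, and in the 12 other settings it lay between 0.0503 and 0.243, the highest being that without PVR replicate 1. The log2 fold change itself stayed between 1.14 and 1.71 in all 15. The samples in which the 2 inflammatory members were highest differed: PVR replicate 3 was the highest PVR sample for CEBPD and the lowest for CEBPB, and PVR replicate 2 was the reverse.

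CEBPA, CEBPG and CEBPZ did not pass the test. CEBPA, the differentiation factor, had FPKM values of 2.33, 2.04 and 1.94 in normal and of 2.49, 2.03 and 2.13 in PVR replicates 1 to 3. Its groups overlapped fully, and its log2 fold change was 0.00 (edgeR, standard error 0.19, adjusted p = 0.993), with a 95% interval from -0.44 to 0.45. Changes of CEBPA within that interval could not be told from 0 in these samples. CEBPG, the dimer partner, had FPKM values of 18.9, 17.2 and 18.3 in normal and of 15.4, 17.6 and 16.6 in PVR replicates 1 to 3. On the CPM scale all 3 PVR samples, from 74.6 to 84.2, lay below all 3 normal samples, from 89.5 to 96.1, whereas on the FPKM scale PVR replicate 2 overlapped normal replicate 2. The log2 fold change of CEBPG was -0.20 (edgeR, standard error 0.08, 95% interval -0.38 to -0.03, unadjusted p = 0.0300, adjusted p = 0.191). CEBPZ had FPKM values of 19.3, 17.3 and 19.4 in normal and of 18.8, 15.2 and 17.7 in PVR replicates 1 to 3, and its groups overlapped. The log2 fold change of CEBPZ was -0.18 (edgeR, standard error 0.10, 95% interval -0.42 to 0.05, adjusted p = 0.333). Over all genes tested, 1.01% were past both thresholds (0.05 for the adjusted p, 1 for the size of the log2 fold change), 0.69% higher and 0.316% lower in PVR, and 28% had groups that did not overlap on the CPM scale. Of the 5 members, CEBPD, on whose value the choice rested, was past both thresholds, and 3 had groups that did not overlap on that scale, CEBPD and CEBPB higher and CEBPG lower in PVR.

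**Figure D2:**
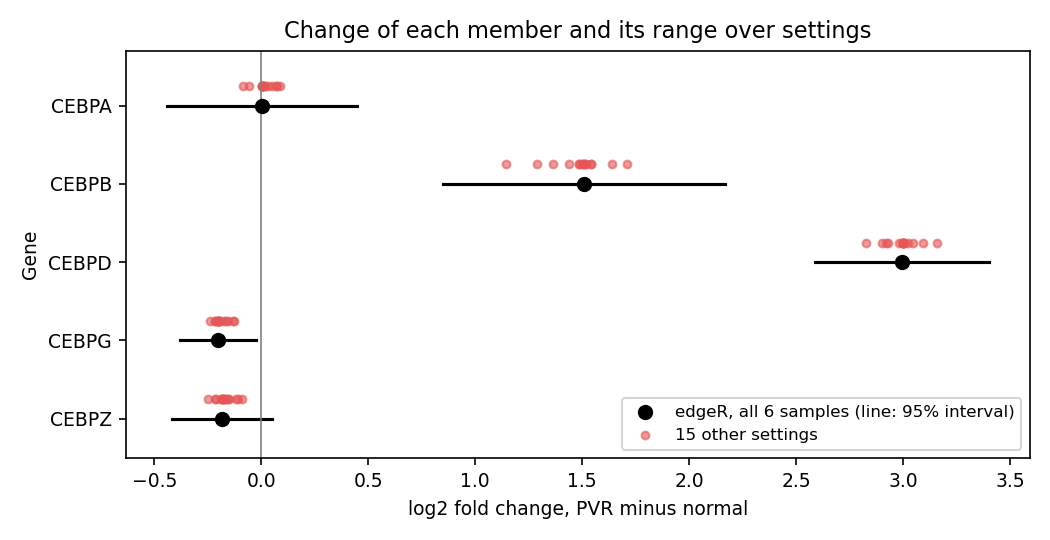
Log2 fold change of PVR against normal for each member, as fitted by edgeR on all 6 samples (black point, with the 95% interval as a line), and under the 15 other settings (red points above the line). CEBPD lies near 2.99 and CEBPB near 1.51, while CEBPA lies at 0.00 and CEBPG and CEBPZ lie slightly below 0.

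A further relative, CEBPE, which is known from the late steps of granulocyte development, is not among the 5 members. Normal replicate 3 held 4 counts of CEBPE and every other sample 0, and a count of 0 allows up to 3 counts per library, or 0.094 CPM of the total in PVR replicate 1, the shallowest library. CEBPE did not pass the filter on low counts.

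The balance within the family differed between the groups. The FPKM of CEBPA, CEBPB, CEBPD and CEBPG, the 4 members with a leucine zipper, added up to 26.8, 26.4 and 26.5 in normal and to 63.1, 60.3 and 65.4 in PVR replicates 1 to 3. In the normal retinas CEBPG made up 68.2% ± 2.94 (SD, n = 3) of this sum and CEBPD 17.6% ± 2.90 (SD, n = 3). In the PVR retinas CEBPD made up 62.1% ± 4.90 (SD, n = 3) and CEBPG 26.3% ± 2.53 (SD, n = 3). The ratio of CEBPD to CEBPG was 0.224, 0.323 and 0.232 in normal and 2.60, 1.94 and 2.61 in PVR replicates 1 to 3, so CEBPD was the less abundant of this pair in all normal samples and the more abundant in all PVR samples. The share of CEBPB was 6.31% ± 1.32 (SD, n = 3) in normal and 8.04% ± 2.77 (SD, n = 3) in PVR, and these shares overlapped. The ratio of CEBPB to CEBPA was between 0.566 and 1.03 in normal and between 1.60 and 3.196 in PVR. RNA levels do not give the amounts of the proteins or of their dimers, and the part of CEBPD in these sums is a description for the reason given above.

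**Figure D3:**
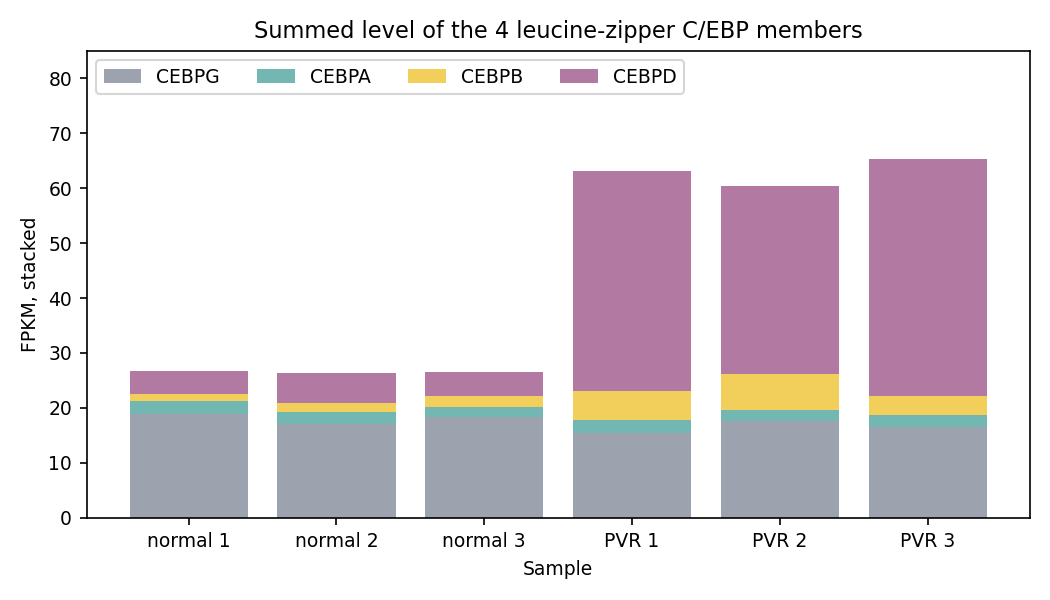
FPKM of CEBPG, CEBPA, CEBPB and CEBPD stacked in each retina sample, with the axis starting at 0. Normal totals run from 26.4 to 26.8 and PVR totals from 60.3 to 65.4, and CEBPD is the largest part in each PVR sample.

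Genes next to the members were read as a check on counts that could be shared. Their order came from the RefSeq annotation of mOryCun1.1, an assembly other than that of the files, so no coordinates are given. In that annotation SPIDR overlaps CEBPD, and NDUFAF7 and CEBPZOS overlap CEBPZ. The strand setting of the authors' counting is not given in the sources used here, so reads from overlapping stretches cannot be told apart. SPIDR, a DNA repair scaffold, had 330, 385 and 400 counts in normal and 532, 514 and 592 in PVR replicates 1 to 3, with a log2 fold change of 0.66 (edgeR, adjusted p = 0.0718), and its groups did not overlap. PRKDC, on the other side of CEBPD, had a log2 fold change of 0.22 (edgeR, adjusted p = 0.169). CEBPZOS, named as the opposite strand of CEBPZ, had between 179 and 257 counts in every sample and a log2 fold change of 0.21 (edgeR, adjusted p = 0.546). CEBPA and CEBPG are neighbours of each other, and PTPN1, next to CEBPB, had a log2 fold change of -0.24 (edgeR, adjusted p = 0.284).

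Around the family, 9 lists of partners, inducers and textbook targets were read in the same fit. They hold 153 genes, of which 140 were matched and 109 were tested. Of these 109, 10 rose past both thresholds, CP, CXCL8, FOS, ITIH3, NFKBIZ, S100A8, S100A9, SAA3, SOCS3 and STAT3, and 0 fell. At an unadjusted p under 0.05, 31 were higher and 11 lower in PVR, and DESeq2 called 20 higher and 0 lower. With edgeR the share of all genes tested past both thresholds was 0.69% for rises and 0.316% for falls. With DESeq2, 564 genes were called higher and 243 lower among the 24960 it fitted. Those 24960 include genes that edgeR's filter removed, whereas the 20 were counted only among the 109, so the 2 shares rest on unlike sets. MMP1, a listed gene outside the 109, was also called higher by DESeq2 (log2 fold change 5.40, adjusted p = 0.00896). No share over all genes was computed at the unadjusted p, here or for the single lists below. The lists were written with earlier results of these data known, and STAT3, SAA3 and CP were already known to be higher. The counts of listed genes are therefore a description and no independent result. The groups did not overlap for 31 genes that were higher in PVR and 17 that were lower, against 13.4% and 14.6% of all genes tested. The median log2 fold change of the 109 genes was 0.15, beside -0.01 for all genes tested. CP and SOCS3 were past the thresholds in all 15 other settings and STAT3 in 14, and the other 7 genes in 8 to 10 of them. Without PVR replicate 1 only CP and SOCS3 stayed past the thresholds, and the adjusted p of the other 8 lay between 0.0658 for STAT3 and 0.237 for S100A8. The number that rose was 4 without normal replicate 1, 5 without normal replicate 2, 2 without PVR replicate 1, 4 without PVR replicate 2, 6 where each sample had to reach 10 counts and 20 with DESeq2.

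**Figure D4:**
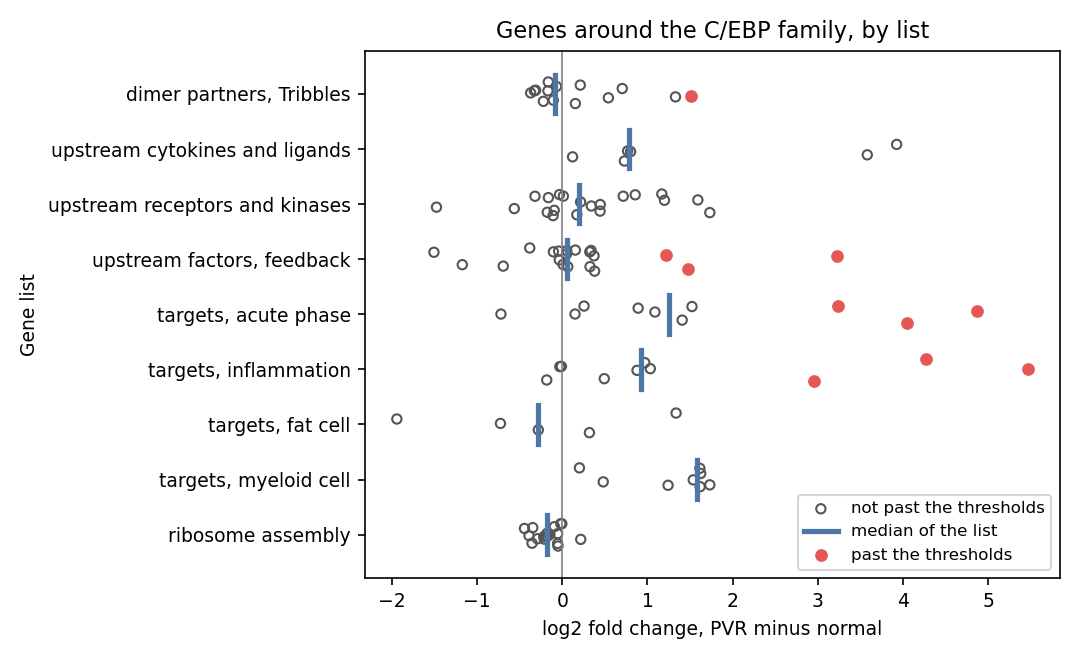
Log2 fold change of PVR against normal for each tested gene of the 9 lists, filled red where a gene was past both thresholds and open where it was not, with the median of each list as a blue bar. The filled points stand for 10 genes, all to the right of 0, while the ribosome assembly genes lie between -0.44 and 0.22 and the dimer partners between -0.37 and 1.51.

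Among the dimer partners, FOS rose and the classical partners of C/EBP proteins did not pass the test. Of the 16 genes, 14 were tested, 1 rose and 0 fell (2 higher and 3 lower at an unadjusted p under 0.05, and 2 called higher by DESeq2), and the median log2 fold change was -0.09. FOS, an immediate early factor whose zipper can also pair with C/EBP proteins, was at 22.7 ± 5.05 CPM (SD, n = 3) in normal and at 65.0 ± 19.0 CPM (SD, n = 3) in PVR (edgeR, log2 fold change 1.51, adjusted p = 0.0359). That call was lost without any one of 5 samples, with adjusted p of 0.116 and 0.0688 without normal replicates 1 and 2, 0.0546 without normal replicate 3, and 0.190 and 0.0747 without PVR replicates 1 and 2. ATF3, a stress-induced factor of the same zipper class named after its values were seen, had counts of 116, 183 and 181 in normal and of 379, 400 and 321 in PVR replicates 1 to 3, and its groups did not overlap. With a log2 fold change of 1.33 it missed the threshold in edgeR (adjusted p = 0.0612) but passed both thresholds with DESeq2 and without PVR replicate 3, with adjusted p of 0.000108 and 0.0330. DDIT3, also called CHOP, which dimerises with C/EBP proteins under stress and keeps them from their usual sites, stood at a log2 fold change of 0.15 (standard error 0.16, edgeR adjusted p = 0.606), and its groups overlapped. ATF4, the partner of CEBPG in the integrated stress response, stood at -0.33 on the log2 scale (standard error 0.10, edgeR adjusted p = 0.139).

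Among the inducers, most cytokines were scarce whereas all receptors and factors on the lists were expressed well enough to be tested. Of the 15 ligands, 9 did not pass the filter on low counts, and IL6 itself had between 0 and 5 counts in every sample. Of the 6 that were tested 0 passed the thresholds (3 higher at an unadjusted p under 0.05, and 2 called by DESeq2), with a median log2 fold change of 0.78. These 2 were LIF, a cytokine of the IL-6 type, with 6, 0 and 4 counts in normal and 65, 51 and 24 in PVR replicates 1 to 3, and IL1B, the inflammatory interleukin, with 1, 9 and 1 counts in normal and 42, 40 and 44 in PVR. In both the groups were apart, but the edgeR adjusted p was 0.0792 for LIF and 0.0718 for IL1B. HGF and CNTF were the most abundant of them, with log2 fold changes of 0.77 and 0.12 (edgeR, adjusted p = 0.106 and 0.794). All 20 receptors and kinases were tested, and 0 passed the thresholds (6 higher and 1 lower at an unadjusted p under 0.05, and 4 called higher by DESeq2), with a median log2 fold change of 0.19. IL6ST, the signal-transducing receptor chain shared by cytokines of the IL-6 type, had between 13822 and 15063 counts in normal and between 16356 and 21884 in PVR, and its log2 fold change of 0.45 had an adjusted p of 0.0532 from edgeR. LIFR, its partner in the receptor for LIF, had a log2 fold change of -0.03 (edgeR, adjusted p = 0.873).

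Of the 20 upstream factors and feedback inhibitors, 3 rose and 0 fell past the thresholds, and the median log2 fold change was 0.06. SOCS3, the feedback inhibitor that STAT3 induces, had 50, 59 and 57 counts in normal and 453, 510 and 466 in PVR replicates 1 to 3. All PVR samples were high, at 13.9, 15.2 and 10.7 CPM, and the groups did not overlap. Its log2 fold change of 3.22 (edgeR, standard error 0.21, adjusted p = 0.00130) stands beside the 2.99 of CEBPD. STAT3 itself was at 77.2 ± 4.11 CPM (SD, n = 3) in normal and at 179 ± 25.2 CPM (SD, n = 3) in PVR, a log2 fold change of 1.21 (edgeR, adjusted p = 0.00733). NFKBIZ, a nuclear regulator of NF-kB that is itself induced by IL-1 and Toll-like receptor signals, was at 5.29 ± 1.47 CPM (SD, n = 3) in normal and at 14.8 ± 1.88 CPM (SD, n = 3) in PVR (edgeR, log2 fold change 1.48, adjusted p = 0.0332). Without normal replicates 1 or 2 and without PVR replicates 1 or 2 the adjusted p of NFKBIZ was 0.112, 0.102, 0.203 and 0.0722.

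Among the textbook targets, the genes past both thresholds with edgeR were in the acute phase and inflammation lists. DESeq2 also called 1 fat cell and 3 myeloid genes higher, and the median log2 fold change was highest in the myeloid list, at 1.58. Of the 24 acute phase and plasma protein genes, 21 were matched, 10 were tested and 3 rose, with 0 falling and a median log2 fold change of 1.25. CP, the copper-binding ferroxidase ceruloplasmin, was at 58.7 ± 5.55 CPM (SD, n = 3) in normal and at 552 ± 6.06 CPM (SD, n = 3) in PVR (edgeR, log2 fold change 3.23, adjusted p = 3.45e-05). SAA3, a serum amyloid A protein made outside the liver, had 52, 48 and 3 counts in normal and 805, 1129 and 857 in PVR replicates 1 to 3 (log2 fold change 4.86, adjusted p = 0.0316 from edgeR), and reads of near-identical serum amyloid genes could be divided between them. The adjusted p of SAA3 was 0.0818 and 0.0916 without normal replicates 1 and 2, and 0.177 and 0.0797 without PVR replicates 1 and 2. ITIH3, a plasma protein that carries hyaluronan, had 2, 2 and 4 counts in normal and 34, 25 and 76 in PVR replicates 1 to 3 (edgeR, adjusted p = 0.0292), and without normal replicates 1 or 2 or PVR replicate 1 its adjusted p was 0.105, 0.1098 and 0.158. The liver-type genes FGA, FGG and APCS had 0 counts in every sample, FGB and CRP had at most 9 in any, and HP, the haemoglobin scavenger haptoglobin, varied between 253 and 2425 counts with overlapping groups (edgeR, adjusted p = 0.370).

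Of the 18 inflammatory targets, 13 were matched, 10 were tested and 3 rose, with 0 falling and a median log2 fold change of 0.92. CXCL8, the neutrophil attractant, had 2, 25 and 1 counts in normal and 383, 405 and 369 in PVR replicates 1 to 3. The normal samples were thus low but uneven, and the log2 fold change was 5.47 (edgeR, standard error 0.88, adjusted p = 0.0359). S100A8 and S100A9, which form the calcium-binding protein calprotectin of myeloid cells, had log2 fold changes of 4.27 and 2.96 (edgeR, adjusted p = 0.0486 and 0.0416). S100A8 had 24, 5 and 2 counts in normal and 208, 209 and 136 in PVR replicates 1 to 3. The adjusted p of CXCL8 was 0.0973, 0.202 and 0.0858 without normal replicate 1, PVR replicate 1 and PVR replicate 2. Without normal replicate 2, PVR replicate 1 and PVR replicate 2 that of S100A8 was 0.155, 0.237 and 0.111 and that of S100A9 was 0.1098, 0.222 and 0.0998, and without normal replicate 1 that of S100A9 was 0.123.

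The C/EBP targets listed for fat and myeloid cells, which were not assigned to single members, did not pass the thresholds with edgeR. Of the 12 fat cell genes 5 were tested and 0 passed (1 higher and 2 lower at an unadjusted p under 0.05, and 1 called by DESeq2), with a median log2 fold change of -0.28. LPL, lipoprotein lipase, and KLF15, a metabolic transcription factor, were the most abundant, with log2 fold changes of -0.72 and -0.28 (edgeR, adjusted p = 0.172 and 0.320). CD36, a fatty acid receptor named after its values were seen, had a log2 fold change of 1.34 (edgeR, adjusted p = 0.0859) and passed both thresholds with DESeq2 and without normal replicate 3, with adjusted p of 0.000618 and 0.0483. PPARG, the master factor of fat cells, had between 1 and 32 counts and did not pass the filter. Of the 12 myeloid genes 8 were tested and 0 passed (6 higher at an unadjusted p under 0.05, and 3 called by DESeq2), although all 8 had log2 fold changes above 0, with a median of 1.58, and 5 of the 8 had groups that did not overlap, against 13.4% of all genes tested. The most abundant were FCGR1A, an antibody receptor, and CSF1R, the growth factor receptor of macrophages, with log2 fold changes of 1.61 and 0.48 (edgeR, adjusted p = 0.226 and 0.245).

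For CEBPZ, the comparison genes were 18 factors that assemble the large ribosomal subunit, of which 17 were tested. In either direction 0 passed the thresholds with edgeR or DESeq2, and 2 were lower at an unadjusted p under 0.05. Their log2 fold changes lay between -0.44 and 0.22 with a median of -0.18, close to the -0.18 of CEBPZ, and 16 of the 17 were below 0, beside a median of -0.01 over all genes tested. The groups did not overlap for 6 of them, all lower in PVR, against 14.6% of all genes tested. DDX18, a nucleolar helicase and the most abundant, had a log2 fold change of -0.35, and NOC2L, a relative of the partner of CEBPZ in yeast, one of -0.14 (edgeR, adjusted p = 0.160 and 0.595).

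Markers of cell types that could carry C/EBP RNA moved with the groups in part. Of the 12 microglia and macrophage markers 11 were tested and 0 passed the thresholds (7 higher at an unadjusted p under 0.05, and 3 called by DESeq2). The groups did not overlap for 8 of the 11, all higher in PVR, against 13.4% of all genes tested. The summed level of the 11 was between 33.5 and 82.6 CPM in normal and between 96.9 and 141 CPM in PVR. None of these markers was at 0. LAPTM5 and C1QA were among the most abundant, with log2 fold changes of 1.21 and 0.66 (edgeR, adjusted p = 0.1105 and 0.394). Of the 10 neutrophil markers 9 were matched and 5 were tested, and S100A8 and S100A9 rose. Their summed level was between 1.60 and 2.55 CPM in normal and between 7.09 and 15.8 CPM in PVR, but without S100A8 and S100A9, which also stand among the targets, it was between 0.735 and 1.49 CPM in normal and between 0.967 and 1.96 CPM in PVR. The listed neutrophil gene MPO had 0 counts in every sample, and PADI4 had at most 1. CXCR2, also listed, had 11, 27 and 11 counts in normal and 25, 23 and 16 in PVR replicates 1 to 3. Its groups overlapped (edgeR, log2 fold change 0.52, adjusted p = 0.619). Of the 5 tested neutrophil markers, 4 had log2 fold changes above 0 and 1 had one below. CSF3R, the receptor for the granulocyte growth factor, had 2, 0 and 1 counts in normal and 6, 6 and 2 in PVR replicates 1 to 3, too few to be tested. MMP9, a protease of neutrophil granules, had 9, 10 and 0 counts in normal and 15, 24 and 19 in PVR, with groups that did not overlap and a log2 fold change of 1.69 (edgeR, adjusted p = 0.327). Of the 8 platelet markers, 7 were matched and 5 tested, 0 passed with edgeR or DESeq2 and 0 had an unadjusted p under 0.05, and their summed level was between 3.65 and 4.89 CPM in normal and between 3.49 and 4.24 CPM in PVR. TREML1 was at 0 throughout, and the most abundant, ITGA2B and F13A1, had log2 fold changes of -0.53 and 0.67 (edgeR, adjusted p = 0.300 and 0.482).

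The 11 markers of Mueller glia and astrocytes, the glia of the retina, were divided. At an unadjusted p under 0.05, 2 were higher and 3 lower, and DESeq2 called 1 higher and 1 lower. The groups did not overlap for 2 that were higher and 3 that were lower, against 13.4% and 14.6% of all genes tested. GFAP had 58.7, 182 and 247 CPM in normal and 439, 452 and 391 in PVR replicates 1 to 3. Its log2 fold change was 1.39 (edgeR, adjusted p = 0.143). RLBP1 was at -0.89 (edgeR, adjusted p = 0.0294), short of the fold threshold. CLU, the chaperone clusterin, rose with a log2 fold change of 1.07, and GLUL, glutamine synthetase, fell by 1.11 on the log2 scale (edgeR, adjusted p = 0.00733 and 0.0125). Both lost their call without PVR replicate 1, with adjusted p of 0.0949 and 0.106, and the fall of GLUL was 0.98 without normal replicate 3 and thus not past the fold threshold. The summed level of these glial markers was between 3479 and 4336 CPM in normal and between 4349 and 4507 CPM in PVR. That sum holds genes that moved in opposite directions, 6 with log2 fold changes above 0 and 5 below. CLU alone was at 779 CPM in normal and 1636 CPM in PVR (means), and GLUL at 950 and 440 CPM. The sum therefore does not show a shared rise of the glial markers. The 9 rod markers had 0 past the thresholds with edgeR or DESeq2 (5 lower at an unadjusted p under 0.05) and a median log2 fold change of -0.31. SAG had a log2 fold change of -0.10 (edgeR, adjusted p = 0.685). Of the 8 markers of the pigment epithelium, 6 were tested, and LRAT and TTR fell by 2.82 and 1.56 on the log2 scale (edgeR, adjusted p = 0.0459 and 0.0478), calls that were lost without any one sample other than normal replicate 3. At an unadjusted p under 0.05, 1 of the 6 was higher and 3 were lower, and DESeq2 called 3 lower. The summed level of all 8 pigment epithelium markers was between 155 and 373 CPM in normal and between 101 and 110 CPM in PVR. All 7 oligodendrocyte markers were lower in PVR with groups that did not overlap, against 14.6% of all genes tested. All 7 had an unadjusted p under 0.05, and DESeq2 called 6 of them lower. Past the thresholds in edgeR were MAG and MOBP, which fell by 4.98 and 5.76 on the log2 scale (edgeR, adjusted p = 0.0478 and 0.0285). The summed level of the 7 markers was between 213 and 1153 CPM in normal and between 120 and 146 CPM in PVR. The call of MAG was lost without normal replicate 2 or any one PVR sample, and that of MOBP without normal replicate 2, PVR replicate 1 or PVR replicate 2, with adjusted p between 0.0648 and 0.239. Of the 9 lens markers 8 were tested and 0 passed with edgeR (1 lower at an unadjusted p under 0.05). DESeq2 called 0, but it gave no adjusted p for CRYAA and CRYBA1 and so could not call these 2. The summed level of the lens markers was between 12.2 and 32732 CPM in normal and between 262 and 300.2 CPM in PVR. The most abundant, CRYAA and CRYBA1, had log2 fold changes of -4.78 and -6.44 that turned positive without normal replicate 2 (4.399 and 3.91). The part of these cell types in the values of CEBPB, CEBPD and their targets was not tested.

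Genes whose profile over the 6 samples was most like that of CEBPD were found by the root mean square difference between log2 CPM values after each gene was centred on its own mean. Among 9599 genes with a symbol and a mean log2 CPM of at least 3, the nearest were CP, with a difference of 0.183 on the log2 scale, the macrophage and melanocyte glycoprotein GPNMB with 0.216, the endothelin receptor EDNRB with 0.248, the complement inhibitor SERPING1 with 0.260 and the myeloid nuclear antigen MNDA with 0.431. Their log2 fold changes were between 2.39 and 3.23. All 5 profiles share with CEBPD a high level in every PVR sample, but within the PVR group EDNRB, SERPING1 and MNDA were highest in replicate 2 and lowest in replicate 3, the opposite of CEBPD, while GPNMB had the order of CEBPD. For CEBPB, among 9600 genes, the nearest were PDLIM3, a protein of the actin cytoskeleton, with a difference of 0.173, RASSF9, a Ras-association protein, with 0.176 and FOS with 0.176. In these 3 genes, as in CEBPB itself and in EDNRB, SERPING1 and MNDA, PVR replicate 2 was the highest and PVR replicate 3 the lowest of the PVR samples. The likeness rests on 6 samples in 2 groups and was the rule by which these genes were picked, so their shared pattern is a description.

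**Figure D5:**
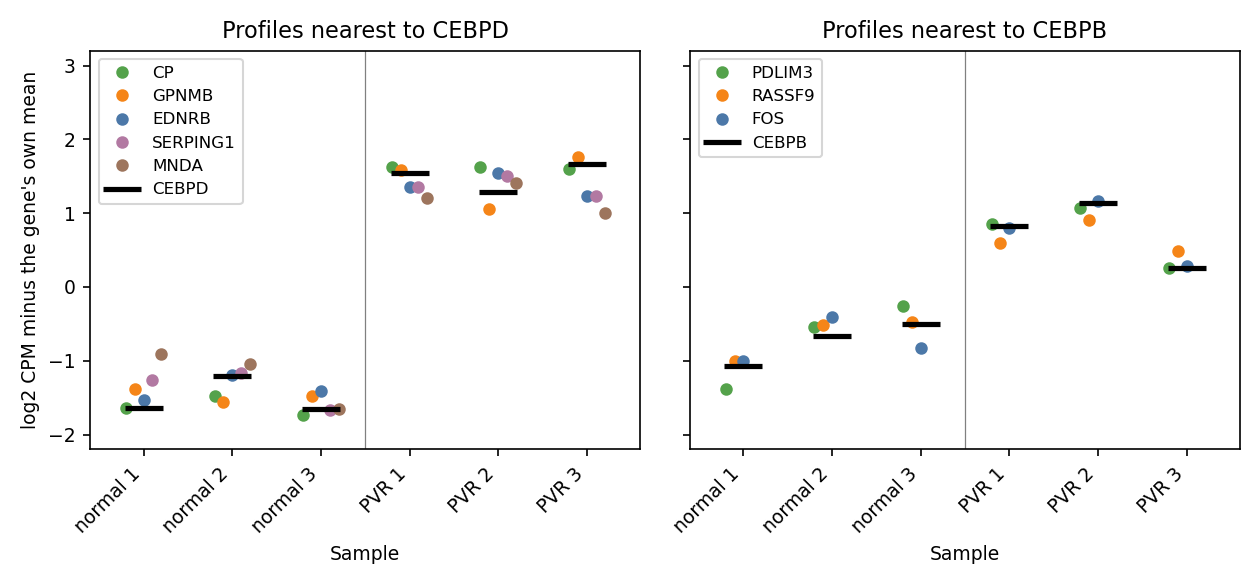
Log2 CPM of each gene minus its own mean over the 6 samples, for CEBPD with its 5 nearest genes and for CEBPB with its 3 nearest genes (black bars mark CEBPD and CEBPB, coloured points the other genes, a grey line parts normal from PVR). In the CEBPD set all PVR points lie above all normal points, with no common order among the PVR samples, while the CEBPB set is highest in PVR replicate 2 and, among the PVR samples, lowest in PVR replicate 3.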

How the data were processed

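Per the labels and the study's methods, the authors used fastp for trimming, HISAT2 for alignment to OryCun2.0 and HTSeq for counts per gene. They deposited raw counts and FPKM values for 3 normal and 3 PVR retina samples. The annotation release is not given in the sources used here, and the labels and the methods name different library kits. Counts divided by the deposited FPKM gave 1 length per gene in all samples (largest relative difference 4.24e-09).

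Counts were tested in R 4.3.3 with edgeR 4.0.16 (default low-count filter, TMM factors, quasi-likelihood fit with condition as the single term, Benjamini-Hochberg adjustment over 18697 genes). The thresholds (0.05 for the adjusted p, 1 for the log2 fold change) are those of the study. A standard error is the log2 fold change divided by the square root of F. DESeq2 1.42.0 and limma 3.58.1 served as alternatives, and the tests were tried on simulated counts. No set test was run. Tables and figures were made with Python 3.11.15.

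The members, the gene lists and the rule for named genes were chosen with earlier results of these data known. Named are the members, STAT3, SOCS3, DDIT3, ATF4, SAA3 and CP, list genes past the thresholds (at most 5 a direction), the 2 most abundant genes of lists with none, and the genes of nearest profile. Other genes were named after their values were seen, or, for neighbours, for their position. Of 228 listed symbols, 205 were matched by symbol, 6 by RefSeq gene identifier and 2 by an older symbol.

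Replicates of a group differed by more than counting noise (chi-square per degree of freedom at least 20.7). Counting limits cover counting error only. No sequence of the members is shown. Some listed genes are not reported here by name.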

Additional observations from a re-analysis of the deposited data

How the results depend on the processing

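The log2 fold changes of CEBPG and CEBPZ kept their direction and stayed short of the thresholds under all 15 alternatives, with ranges of -0.24 to -0.13 and -0.25 to -0.09. That of CEBPD, which is a description because the family was chosen on it, ranged from 2.83 to 3.16. That of CEBPA, with a main value of 0.00, changed sign with single samples left out, from -0.0872 (without PVR replicate 1) through -0.06 (without normal replicate 3) to 0.0854. CEBPB passed the thresholds with DESeq2 (1.51) and with no filter on low counts (1.505), and with samples left out it lay between 1.29 and 1.71, passing without PVR replicate 3. The number of pathway list genes that rose, 10, was 20 with DESeq2, 6 with at least 10 counts in every sample, 6 with the replicate block and 2 to 12 with samples left out. The number that fell, 0, reached 1 (without normal replicate 3). Over all genes, 129 rose and 59 fell. These numbers were 564 and 243 with DESeq2, 68 and 19 on the log2(FPKM + 1) scale and 56 and 26 with the replicate block, and the falls were 31 with at least 10 counts in every sample and 37 with limma-voom. With samples left out, rises ranged from 16 to 373 and falls from 6 to 159, lowest without PVR replicate 1. The replicate block changed no call of a member. Samples that share a number did not deviate together (correlations of -0.0129, 0.0734 and 0.0417), not every sample correlated best with its own number, and nothing in the labels pairs them.

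Among single named genes, some changed sign without being called in the main test. LIFR was at 0.0402 and 0.0416 on the log2(FPKM + 1) and log2(FPKM + 0.1) scales. With samples left out CNTF ranged from -0.0504 to 0.35, LIFR from -0.10 to 0.0499 and SAG from -0.17 to 0.0461. The lens genes CRYAA and CRYBA1 rested on normal replicate 2: they were at 4.399 and 3.91 without it, at -5.36 and -7.02 at the lowest with another sample left out, at 2.89 and 2.42 with the replicate block, and CRYAA was at 0.83 with limma-voom and at 0.79 and 0.89 on the log2(FPKM + 1) and log2(FPKM + 0.1) scales. For the 42 single genes named by the rule, the alternatives gave 621 values. Of these, 527 kept direction and call, 78 lost their call, 3 gained one and 13 changed sign. Genes named for other reasons, such as ATF3, CD36, LIF and IL1B, are not in these numbers. At this depth CEBPE, IL6 and other genes with a few counts per library could not be tested.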
